A study of Mus musculus with 3 samples.

Results

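γδ T cells were sought among the unsorted cells of healing mouse skin wounds, and 81 of the 36040 cells kept from Day 7 and Day 14 met the gate for them, 6 on Day 7 and 75 on Day 14. A kept barcode had at least 500 unique molecular identifiers (UMIs, each counted as 1 captured RNA molecule), at least 200 genes and at most 10% of its UMIs from mitochondrial genes. A γδ T cell was a kept barcode with at least 2 UMIs over *Cd3d*, *Cd3e* and *Cd3g*, which encode the invariant chains of every T cell receptor, at least 1 UMI of *Trdc*, the constant region of the δ chain, under 0.8% of its UMIs in *Lyz2*, *C1qa* and *C1qb*, which mark myeloid cells, and under 1% in *Dcn* and *Col1a2*, which mark fibroblasts. The reference was the αβ T cells, which passed the same gate with no *Trdc* UMI and at least 1 UMI of *Trac* or *Trbc2*, the constant regions of the α and β chains. There were 78 of them on Day 7 and 73 on Day 14, and 22 gated T cells on each day met neither definition. The cells were thus selected on the measured UMIs of these genes, whose levels are given as a description only.

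The wounds were full-thickness, made with a 4 mm punch in the dorsal skin of male C57BL/6J mice aged 7 to 12 weeks, and 4 wounds were pooled into each library. The labels name no genotype beyond the strain and no treatment beyond wounding for any library. Wound tissue was collected 3, 7 and 14 days after injury, 1 library a day, so the animal cannot be recovered for any cell, there is no replicate, and day and library cannot be told apart. No test between groups was therefore possible. Intervals on UMI levels are exact Poisson, on shares of cells exact Clopper-Pearson, and on ratios exact conditional binomial, all at 95%, and they cover counting error only.

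γδ T cells are lymphocytes whose antigen receptor is built from a γ and a δ chain in place of the α and β chains of conventional T cells. In mouse skin, one population, the dendritic epidermal T cells, lives among keratinocytes, carries an almost invariant receptor that joins the Vγ5 and Vδ1 segments, and is known for cytotoxic granules and for growth factors that act on keratinocytes after injury. Other γδ T cells, found mainly in the dermis, are known for making interleukin-17.

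The V segments of the epidermal receptor are shown because the results on receptor transcripts turn on them. *Trdv4* is the gene name of Vδ1 and *Tcrg-V5* that of Vγ5, and both lie on the + strand of the mouse genome (GRCm38, or mm10). The sequences are the V exons of the GENCODE vM21 transcripts, chr14:54075217-54075515 for *Trdv4* (299 bases) and chr13:19192428-19192725 for *Tcrg-V5* (298 bases). The capitals mark the codon of the conserved cysteine, which is the last in-frame Tyr-Tyr-Cys of the exon and opens the third complementarity-determining region, the most variable loop of the receptor.
Trdv4: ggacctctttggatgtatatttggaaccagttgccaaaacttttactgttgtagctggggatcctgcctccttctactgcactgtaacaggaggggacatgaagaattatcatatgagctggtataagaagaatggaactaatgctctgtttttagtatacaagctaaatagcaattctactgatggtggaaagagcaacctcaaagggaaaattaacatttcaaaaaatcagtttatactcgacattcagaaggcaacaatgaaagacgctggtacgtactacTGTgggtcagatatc
Tcrg-V5: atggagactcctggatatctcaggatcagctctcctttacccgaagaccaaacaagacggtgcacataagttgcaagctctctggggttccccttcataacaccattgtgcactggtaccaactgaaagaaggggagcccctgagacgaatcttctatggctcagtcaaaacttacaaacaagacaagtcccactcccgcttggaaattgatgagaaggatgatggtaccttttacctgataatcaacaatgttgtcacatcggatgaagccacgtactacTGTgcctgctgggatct

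Most γδ cells of Day 14 carried transcripts of the Vδ1 chain. This chain is part of the epidermal receptor but is also known to pair with Vγ6 in dermal interleukin-17 cells, so a *Trdv4* UMI does not by itself mark an epidermal cell. *Trdv4* had 223 UMIs in 62 of the 75 cells, a level of 1168 CPM (the gene's UMIs scaled to 1e6 UMIs of the group, 95% interval 1020 to 1332), and no UMI in the 73 αβ cells, so it was at least 77.8-fold higher, taking the 0 as 3 counts over the group. On Day 7 it had 8 UMIs in 4 of the 6 γδ cells (433 CPM) and again none in the αβ cells. The αβ cells were gated to have no UMI of *Trdc*, the constant region of the same chain. Their lack of *Trdv4*, and the ratio formed from it, were therefore in part set by the gate. The γδ cells were 0.518% of the kept cells of Day 14 but held 79.9% of that library's 279 *Trdv4* UMIs.

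The constant region of the γ chain followed the same cells. *Tcrg-C1*, which serves the Vγ5 chain among others, stood at 938 CPM in 61 of 75 cells against 15.0 CPM from 3 UMIs in the αβ cells of Day 14, a log2 ratio of 5.96 (4.39 to 8.26), and at 650 CPM in 4 of 6 cells against 9.84 CPM on Day 7. *Tcrg-C4* and *Tcrg-C2*, the constant regions of other γ chains, had 28 UMIs in 20 cells and 15 UMIs in 12 cells of Day 14. In all, 65 of 75 cells had a UMI of some γ constant region, 54 had it together with *Trdv4*, and 2 had neither. With every cell thinned to 500 UMIs, a *Trdv4* UMI was found in 45.3% of the γδ cells and in none of the αβ cells, the latter gated to lack *Trdc*. Among cells that should lack the gene it was found in 0 of 2430 gated as myeloid and in 0.0128% of 7813 gated as fibroblasts. Without thinning it was found in 82.7% of γδ cells (median 2106 UMIs), 0% of αβ cells (median 2389), 0.0412% of myeloid cells (median 3813) and 0.243% of fibroblasts (median 10293).

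Of the γ variable segments, *Tcrg-V5* had 12 UMIs in 11 of the 75 cells of Day 14 and none in the αβ cells. That was 92.3% of the 13 *Tcrg-V5* UMIs of the whole library. A *Trdv4* UMI was also present in 9 of the 11 cells, a share near the 62 of 75 among all γδ cells. *Trgv2*, another γ variable segment, had 15 UMIs in 12 cells against 1 UMI in the αβ cells. Of those 12 cells, 10 had a *Trdv4* UMI, so neither segment stood out by its overlap with *Trdv4*. *Tcrg-V6*, the segment of the dermal interleukin-17 cells, had no UMI in the whole Day 14 library, and *Tcrg-V4*, used by another dermal population, had 1. The chemistry reads the 3' end of transcripts, far from the V exon, and a segment without UMIs is therefore not shown to be unused.

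Of the genes proposed as markers of these cells, *Cd3g* and *Trdc* were part of the gate, and *Icos*, a costimulatory receptor induced on activated T cells, went against the label on Day 14. It had 9 UMIs in 6 of 75 γδ cells (47.1 CPM) against 198 UMIs in 59 of 73 αβ cells (991 CPM), a log2 ratio of −4.39 (−5.54 to −3.44). On Day 7 its level was 541 CPM, all from 2 of the 6 γδ cells, against 807 CPM in the αβ cells. Transcripts of the β chain were not absent from the γδ cells. *Trbc1* stood at 566 CPM in 47 of 75 cells against 466 CPM in the αβ cells, *Trbc2* at 398 against 916 CPM, and *Trac* had 9 UMIs in 9 cells. A UMI of *Trac* or *Trbc2* was present in 49 of the 75 cells, and over the other 26 the log2 ratio of *Trdv4* was at least 6.48.

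The γδ cells were a smaller share of the Day 7 library than of the Day 14 library. They made up 0.0278% (0.0102 to 0.0605) of the 21568 kept cells of Day 7 and 0.518% (0.408 to 0.649) of the 14472 of Day 14. The αβ cells made up 0.362% (0.286 to 0.451) and 0.504% (0.396 to 0.634). Among all gated T cells the γδ share was 5.66% (2.11 to 11.9) of 106 and 44.1% (36.5 to 51.9) of 170. Counting only γδ cells without a *Trac* or *Trbc2* UMI, 26 on Day 14, the shares of that library were 0.180% of kept cells and 15.3% of gated T cells. Transcription of an unrearranged β locus, barcodes with more than 1 cell and free RNA were not separated as sources of those UMIs. The plot of shares shows the γδ cells level with the αβ cells on Day 14 only. That evenness depended on the Cd3 limit. With at least 3 Cd3 UMIs there were 72 γδ and 57 αβ cells on Day 14, and γδ cells were 51.8% of gated T cells. With at least 1 Cd3 UMI there were 78 and 91, and the γδ share was 36.8%. All of these are shares or counts of dissociated cells in 1 library a day. Neither the spread between libraries nor recovery from the tissue was measured.

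**Figure D1:**
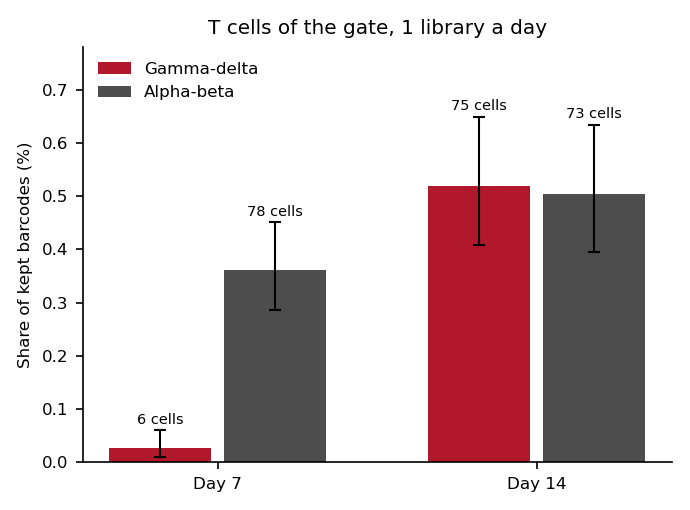
Share of γδ and αβ T cells among kept cells (percent, y axis) on Day 7 and Day 14 (x axis), with exact 95% binomial intervals as error bars. The γδ bar is 0.0278% on Day 7 and 0.518% on Day 14, and the αβ bars are 0.362% and 0.504%.

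Cells just inside the gate were few on Day 14. On Day 14 the γδ cells had a median of 6 *Trdc* UMIs (1 to 25) and 20 Cd3 UMIs (2 to 72), 2 cells had a single *Trdc* UMI and 3 had exactly 2 Cd3 UMIs. Just outside it, among kept cells under the limits on myeloid and fibroblast UMIs, were 3 with *Trdc* and 1 Cd3 UMI and 4 with *Trdc* and no Cd3 UMI. A further 12 with *Trdc* and at least 2 Cd3 UMIs exceeded the limit on myeloid or fibroblast UMIs. On Day 7 the medians were 3 *Trdc* and 14.5 Cd3 UMIs, 1 of the 6 cells had a single *Trdc* UMI and 1 had exactly 2 Cd3 UMIs. In that library 17 kept cells under those limits had *Trdc* without any Cd3 UMI. Unthinned, *Trdc* was also found in 32 cells gated as fibroblasts and 2 gated as myeloid on Day 7, and in 11 and 5 on Day 14. The γδ cells held 18475 UMIs in all on Day 7 (median 2932.5 a cell) and 190932 on Day 14 (median 2106, 517 to 9415), and the αβ cells 203155 and 199717. The Day 7 levels of the γδ cells thus rest on few molecules, 1 UMI being worth 54.1 CPM. Mitochondrial genes took a median of 2.61% of UMIs in γδ and 2.50% in αβ cells of Day 14. The nuclear RNA *Gm42418*, which carries ribosomal RNA sequence, took 16.6% of γδ UMIs on Day 7 and 8.39% on Day 14, and 17.4% and 7.54% of αβ UMIs. No γδ barcode was shared between the 2 days, and 3 γδ barcodes of Day 14 occurred in another library.

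Across all genes, levels were compared between γδ and αβ cells of the same library where both groups together had at least 20 UMIs, and a 2-fold difference was used as a rule of size, not as a test. On Day 14, 469 of 2989 genes (15.7%) were at least 2-fold higher in γδ cells and 306 (10.2%) at least 2-fold lower, 74.1% lay within 2-fold, and the median log2 ratio was 0.04. On Day 7, with 6 cells, 194 of 1760 (11%) were higher and 328 (18.6%) lower. The counts of each gene list are read against the shares of the same day. Of the 1649 genes that could be compared in both libraries, 56 (3.4%) were 2-fold higher in both and 72 (4.37%) lower in both. The scatter of Day 14 levels shows where the genes named here lie among the rest.

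**Figure D2:**
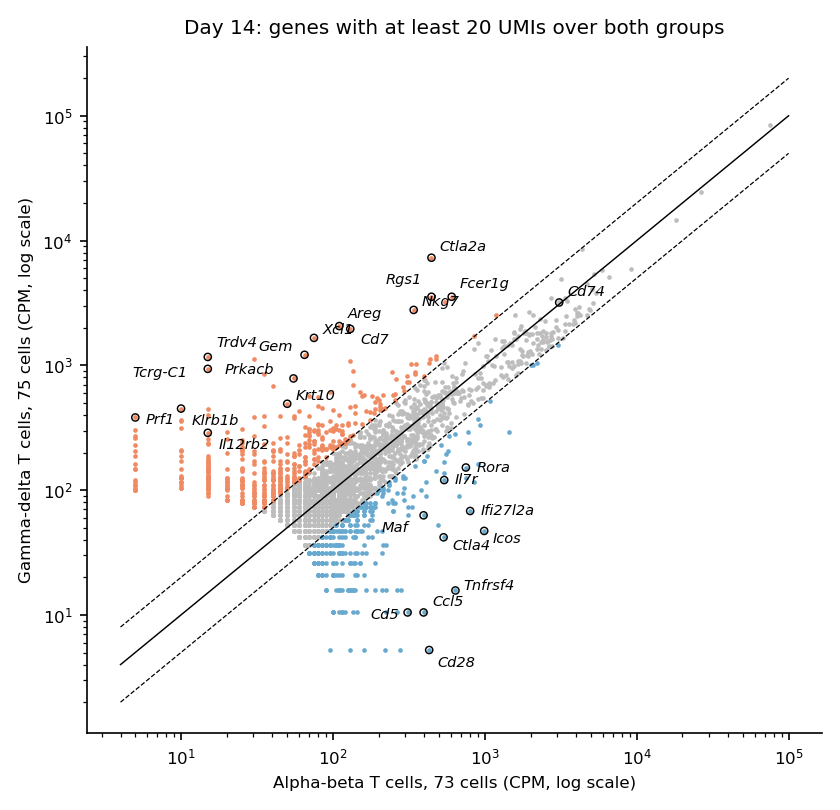
Level of each gene in γδ cells (y axis, CPM, log scale) against αβ cells (x axis, CPM, log scale) on Day 14, for genes with at least 20 UMIs over both groups. Dashed lines mark 2-fold, orange points are at least 2-fold higher in γδ cells and blue points at least 2-fold lower, and a level of 0 is drawn at 3 counts. *Ctla2a*, *Fcer1g*, *Nkg7*, *Xcl1* and *Areg* lie above the upper line and *Icos*, *Cd28* and *Tnfrsf4* below the lower one.

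Genes known from epidermal T cells and from cytotoxic lymphocytes were among those highest in the γδ cells. Of 19 genes in the list of the epidermal T cell programme, 12 could be compared on Day 14, with a median log2 ratio of 2.55 (2.11 when genes with no UMI in a group are put at their bound). Of these, 7 were 2-fold higher (58.3%, against 15.7% of all genes) and 1 lower (8.33%, against 10.2%). On Day 7, 3 of 6 were higher (50%, against 11% of all genes) and 1 lower (16.7%, against 18.6%), with a median of 1.12. This list, like the others, was chosen with earlier results of these data known. Its counts describe the genes and do not test what kind of cell these are. *Fcer1g*, the Fc receptor γ chain that also carries the signal of the epidermal receptor, stood at 3546 CPM in 70 of 75 γδ cells against 606 CPM in 19 of 73 αβ cells, a log2 ratio of 2.55 (2.27 to 2.84). On Day 7 the levels were 1191 CPM in 4 of 6 cells against 241 CPM. Myeloid cells also express *Fcer1g*, and with cells thinned to 500 UMIs a UMI was found in 74.7% of γδ cells, 12.3% of αβ cells and 79.2% of cells gated as myeloid. *Cd7*, a surface glycoprotein of T and NK cells, stood at 1959 against 130 CPM on Day 14, and on Day 7 had 5 UMIs in 2 of 6 cells, 4 of them in a cell that also held 105 *Mmp12* UMIs. *Itgae*, the αE integrin that binds E-cadherin on epithelial cells, stood at 304 against 95.1 CPM (log2 ratio 1.67, 0.91 to 2.51). *Gzmc*, which encodes granzyme C, had 19 UMIs in 9 γδ cells against 1 UMI (log2 ratio 4.31, 1.66 to 9.69), and *Cd244a*, an NK cell receptor, 22 UMIs in 19 cells against 2 (3.52, 1.50 to 6.66). The member that was lower was *Ly6c2*, a surface antigen of memory T cells, with no UMI in γδ cells against 210 CPM.

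The cytotoxic and interferon-γ programme was split. Of its 19 genes, 9 could be compared, with a median of 2.79 (0.83 with bounds). Of these, 4 were higher and 4 lower (44.4% each, against 15.7% and 10.2% of all genes). *Nkg7*, a protein of cytotoxic granules, had 2781 CPM in 69 of 75 γδ cells against 341 CPM in 28 of 73 αβ cells (log2 ratio 3.03, 2.66 to 3.42), and 650 against 54.1 CPM on Day 7. *Prf1*, the pore-forming perforin, had 73 UMIs in 46 of 75 γδ cells (382 CPM) against 1 UMI in the αβ cells, a log2 ratio of 6.25 (3.73 to 11.58). *Klrd1*, the CD94 chain of NK receptors, stood at 555 against 80.1 CPM (2.79, 2.03 to 3.65). The fourth member that was higher was *Xcl1*, and *Nkg7*, *Xcl1* and *Ly6c2* stand in the epidermal list too. In contrast *Ccl5*, a chemokine of effector T cells, had 2 UMIs in γδ cells against 79 in αβ cells (396 CPM), and *Ccl4*, *Cd27* and *Ly6c2* were the other members 2-fold lower. *Gzmb*, granzyme B, and *Ifng*, interferon-γ, had no UMI in the 75 γδ cells, against 80.1 and 40.1 CPM in the αβ cells. The γδ cells therefore held perforin and granzyme C transcripts but no detected granzyme B or interferon-γ at this depth.

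Among secreted factors, *Xcl1* and *Areg* stood out. *Xcl1*, lymphotactin, a chemokine that draws cross-presenting dendritic cells, had 317 UMIs in 52 of 75 γδ cells (1660 CPM) against 15 UMIs in 9 of 73 αβ cells (75.1 CPM), a log2 ratio of 4.47 (3.72 to 5.32), and on Day 7 it stood at 487 CPM in 3 of 6 cells against 19.7 CPM. *Areg*, amphiregulin, a ligand of the EGF receptor known to act on epithelium, had 394 UMIs in 47 γδ cells (2064 CPM) against 22 UMIs in 12 αβ cells (110 CPM), a log2 ratio of 4.23 (3.61 to 4.92). On Day 7 the *Areg* levels were 758 and 345 CPM, a log2 ratio of 1.14 (0.19 to 1.98). The 3 γδ cells behind that level held 1, 3 and 10 UMIs, so it rests mostly on 1 cell. Thinned to 500 UMIs, an *Xcl1* UMI was found in 42.7% of γδ, 2.74% of αβ, 0.0412% of myeloid and 0.0512% of fibroblast cells of Day 14, and an *Areg* UMI in 38.7%, 1.37%, 2.06% and 0.269% (unthinned, 69.3% and 62.7% of the γδ cells). Both transcripts were present in 34 of the 75 cells, at least 1 of them in 65 and neither in 10. The cell with the most *Xcl1* UMIs held 22.1% of them, and the cell with the most *Areg* UMIs 17.8%.

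Of the 16 growth and repair factors listed, only *Areg* and *Tgfb1* reached the 20 UMIs, and *Tgfb1*, transforming growth factor β1, stood at 120 CPM in γδ and 160 CPM in αβ cells (log2 ratio −0.41, −1.25 to 0.41). *Igf1*, insulin-like growth factor 1, had 7 UMIs in 7 γδ cells, and *Fgf7* and *Fgf10*, keratinocyte growth factors attributed to epidermal T cells, had none. Of the other T cell cytokines, 6 of 18 could be compared. *Ltb*, lymphotoxin β, and *Il6* were 2-fold lower (log2 ratios −1.50 and −2.39), 33.3% against 10.2% of all genes, while none was higher. *Il13*, a type 2 cytokine, had 12 UMIs in 9 γδ cells against 1 UMI in the αβ cells and did not reach the 20 UMIs.

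Interleukin-17 transcripts were rare in these cells. *Il17a* had 5 UMIs in 3 of 75 γδ cells of Day 14 (26.2 CPM) against 9 UMIs in 2 of 73 αβ cells (45.1 CPM), and no UMI in the 6 cells of Day 7. *Il17f* had 2 UMIs on Day 14. Of the 9 genes listed as interleukin-17 cytokines only *Csf2*, which encodes GM-CSF, reached 20 UMIs, and its 32 UMIs were all in 1 cell. Of the 26 genes of the interleukin-17 T cell programme, 13 could be compared on Day 14, with a median log2 ratio of −1.09. Of these, 1 was higher (7.69%, against 15.7% of all genes) and 7 lower (53.8%, against 10.2%). On Day 7, 4 of 9 were lower (44.4%, against 18.6% of all genes) and none higher (median −0.79). *Ahr*, the aryl hydrocarbon receptor, on which epidermal T cells also depend, was the one that was higher, at 236 against 35.0 CPM (log2 ratio 2.75, 1.59 to 4.14). Among those lower were *Maf* (62.8 against 396 CPM) and *Rora* (152 against 751 CPM), transcription factors of interleukin-17 cells, and *Il7r*, the interleukin-7 receptor (120 against 541 CPM). On Day 7 the ratios of *Maf* and *Rora* were also negative, −1.86 and −1.26. All these ratios are relative to αβ cells that were not divided by kind. How far the make-up of that reference sets them was not tested.

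Costimulatory receptors were mostly lower in the γδ cells. Of 10 comparable genes of 18 listed, 7 were 2-fold lower (70%, against 10.2% of all genes) and 2 higher (20%, against 15.7%) on Day 14, with a median of −2.97. On Day 7, 4 of 9 were lower (44.4%, against 18.6% of all genes) and none higher (median −0.92, or −1.27 with bounds). *Cd28*, the main costimulatory receptor of conventional T cells, had 1 UMI in the 75 γδ cells against 86 UMIs in 46 of 73 αβ cells (431 CPM), a log2 ratio of −6.36 (−11.68 to −3.84), and no UMI on Day 7 against 300 CPM. *Tnfrsf4*, the OX40 receptor, had 3 UMIs, all in 1 cell, against 641 CPM. *Ctla4*, an inhibitory receptor, stood at 41.9 against 536 CPM, and *Cd5*, which dampens receptor signalling, at 10.5 against 310 CPM. The pair that was higher, *Havcr2* (168 against 35.0 CPM) and *Cd96* (126 against 40.1 CPM), encode the inhibitory receptors TIM-3 and CD96.

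The list of αβ T cell genes, without the gate genes, had 7 of 10 comparable members lower on Day 14 (70%, against 10.2% of all genes) and 1 higher (10%, against 15.7%). The median was −2.47 (−3.50 with bounds). On Day 7, 4 of 9 were lower (44.4%, against 18.6% of all genes). *Cd4*, the coreceptor of helper T cells, had no UMI in γδ cells of either day, against 225 CPM in αβ cells of Day 14. *Themis*, a signalling protein of T cell selection, was the one that was higher, with 15 against 7 UMIs and an interval that spans 0 (log2 ratio 1.16, −0.22 to 2.70). Of 12 comparable genes of T cell receptor signalling 10 lay within 2-fold (83.3%, against 74.1% of all genes), a share near that of all genes. *Cd247*, the CD3ζ chain, was higher (608 against 95.1 CPM, log2 ratio 2.67, 1.97 to 3.46), and *Rac2*, a small GTPase of blood cells, was lower (−1.69).

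Cytokine receptors were mostly lower on Day 14, 8 of 13 comparable genes (61.5%, against 10.2% of all genes), with a median of −1.78. Only 1 was higher (7.69%, against 15.7%). On Day 7, 2 of 11 were lower (18.2%, against 18.6% of all genes), none was higher and the median was −0.27. *Il1rl1*, the interleukin-33 receptor, stood at 15.7 against 265 CPM on Day 14 and 54.1 against 453 CPM on Day 7. *Il2ra*, the α chain of the interleukin-2 receptor, stood at 47.1 against 210 CPM. *Il2rb*, the β chain that also serves interleukin-15, went the other way without reaching 2-fold, at 770 CPM in 59 of 75 γδ cells against 401 CPM (log2 ratio 0.94, 0.54 to 1.35). The receptor that was higher was *Il12rb2*, a chain of the interleukin-12 receptor, with 55 UMIs in 32 γδ cells (288 CPM) against 3 UMIs, a log2 ratio of 4.26 (2.64 to 6.58). The plot of levels by group shows these opposite patterns side by side.

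**Figure D3:**
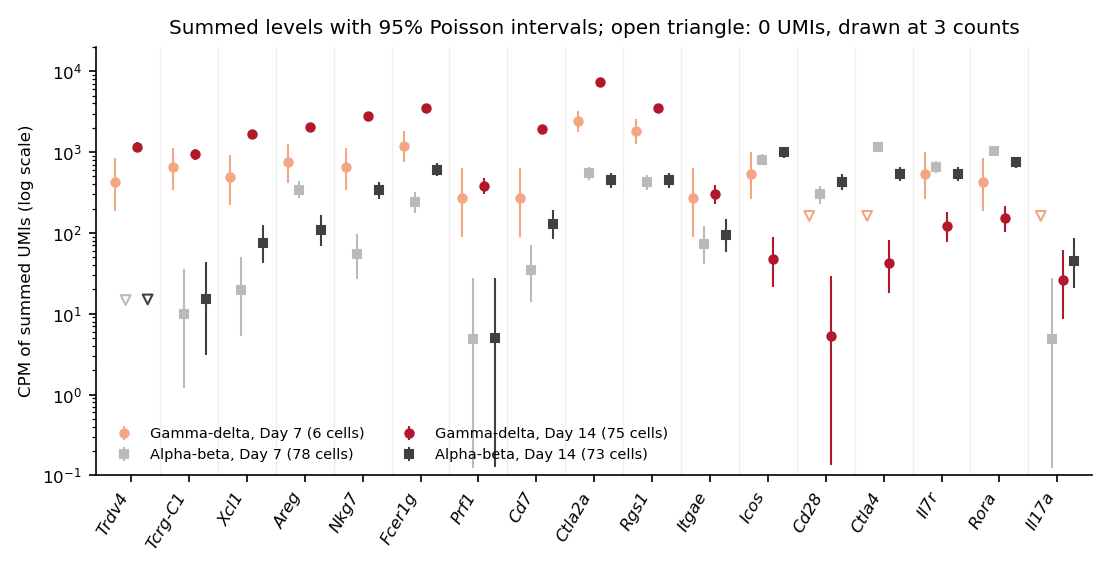
Level of 17 genes (CPM, log scale) in γδ and αβ T cells of Day 7 and Day 14, with exact 95% Poisson intervals of the summed UMIs. An open triangle marks a group with no UMI, drawn at 3 counts. *Trdv4* has no UMI in αβ cells of either day, and the Day 7 γδ intervals are wide because 18475 UMIs lie behind them.

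Genes of homing and tissue residency differed in both directions on Day 14. Of 16 comparable genes 5 were higher (31.25%, against 15.7% of all genes) and 4 lower (25%, against 10.2%). Those higher were *Rgs1* and *Rgs2*, which restrain signalling from chemokine and other G protein-coupled receptors, *Cd9*, a tetraspanin, *Runx3*, a transcription factor of resident and cytotoxic lymphocytes, and *Itgae*. *Rgs1* stood at 3546 against 446 CPM on Day 14 (log2 ratio 2.99, 2.67 to 3.33) and at 1840 against 423 CPM on Day 7, and *Runx3* at 571 against 180 CPM on Day 14. The 4 γδ cells of Day 7 with *Rgs1* held 1, 7, 22 and 4 of its UMIs. *S1pr1*, the receptor that lets lymphocytes leave tissue, had 2 UMIs in γδ cells against 23 in αβ cells, and *Ccr2*, a chemokine receptor of recruited cells, stood at 83.8 against 295 CPM. *Bhlhe40* and *Itga4* were the others that were lower (log2 ratios −2.11 and −1.09).

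Of the markers of innate lymphoid and NK cells, 3 of 11 could be compared. Of these, 1 was higher (33.3%, against 15.7% of all genes) and 2 lower (66.7%, against 10.2%). *Klrb1b*, an inhibitory receptor of the NK1.1 family, had 86 UMIs in 43 of 75 γδ cells (450 CPM) against 2 UMIs in the αβ cells, a log2 ratio of 5.49 (3.59 to 8.56). *Gata3*, a type 2 transcription factor, and *Il1rl1* were lower (log2 ratios −1.88 and −4.08). The summed level of the 11 markers was 623 CPM in γδ and 566 CPM in αβ cells, with 4 of them at 0 in γδ cells.

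Of 25 comparable activation and stress genes, 5 were higher (20%, against 15.7% of all genes) and 3 lower (12%, against 10.2%), shares near those of all genes. The immediate early genes *Fos* (1184 against 481 CPM) and *Jun* (471 against 140 CPM) and the receptor-induced nuclear factor *Nr4a2* (581 against 215 CPM) were among those higher. Enzymatic dissociation is known to induce such genes, and its part here was not tested. Of 12 glycolysis and hypoxia genes, 2 were higher (16.7%, against 15.7% of all genes) and 3 lower (25%, against 10.2%). Those higher were *Hk2*, which encodes hexokinase 2 (461 against 130 CPM), and *Tpi1*, and those lower *Hif1a*, the hypoxia-inducible factor (73.3 against 330.5 CPM), *Pfkp* and *Pkm*. *Hk2* was 2-fold higher on Day 7 too (log2 ratio 2.16, 1.00 to 3.22). Of 7 lipid genes, 2 were higher (28.6%, against 15.7% of all genes) and 1 lower (14.3%, against 10.2%). Those higher were the sterol and fatty acid synthesis genes *Hmgcs1* (236 against 15.0 CPM) and *Scd2* (131 against 10.0 CPM). The fatty acid carrier *Fabp4* was lower (15.7 against 110 CPM). Of 11 cell cycle genes 8 lay within 2-fold on Day 14 (72.7%, against 74.1% of all genes). On Day 7, 6 of 14 were higher (42.9%, against 11% of all genes), none was lower and the median was 0.92. All *Mki67* and *Top2a* UMIs of the Day 7 γδ cells came from 2 of the 6 cells. On Day 14 *Mki67* stood at 73.3 against 70.1 CPM and *Top2a* at 73.3 against 80.1 CPM, and 7 of the 75 γδ cells had a UMI of either.

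Genes were also named by size, as those with the largest ratios in both libraries among genes with at least 10 UMIs and 50 CPM. They come from the same cells and UMIs as the lists, so genes found in both are no separate support. The 12 that were highest in γδ cells were *Prkacb*, *Gem*, *Nkg7*, *Bcl2*, *Rgs2*, *Fcer1g*, *Ctla2a*, *Rgs1*, *Hk2*, *Anxa2*, *Purb* and *Sept11*. *Ctla2a*, which encodes a cysteine protease inhibitor, reached 7285 CPM in 69 of 75 γδ cells against 446 CPM in αβ cells (log2 ratio 4.03, 3.72 to 4.36) and 2436 against 551 CPM on Day 7. *Gem*, a small GTPase, stood at 1215 against 65.1 CPM and at 758 against 88.6 CPM. The 6 γδ cells of Day 7 held 9, 5, 20, 6, 1 and 4 UMIs of *Ctla2a*. The 4 of them with *Gem* held 1, 3, 2 and 8 of its UMIs. *Prkacb*, a catalytic subunit of protein kinase A, stood at 786 against 55.1 CPM and at 1083 against 113 CPM, and *Bcl2*, which blocks apoptosis, at 393 against 70.1 CPM and 541 against 78.8 CPM. The 12 that were lowest were *AW112010*, *Il1rl1*, *Ifi27l2a*, *Ctla4*, *Ikzf2*, *Cd5*, *Il2ra*, *Klrg1*, *Gmfg*, *Samsn1*, *Tgif1* and *Maf*. *Ifi27l2a*, an interferon-induced gene, stood at 68.1 against 801 CPM on Day 14 and 108 against 812 CPM on Day 7.

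RNA of other cell types was present in both T cell groups. Fibroblast markers summed to 5536 CPM in γδ and 6084 CPM in αβ cells of Day 14 with a UMI in every cell. None of the 5 that could be compared differed 2-fold, while 74.1% of all genes lay within 2-fold. With cells thinned to 500 UMIs, *Col1a1*, the fibroblast collagen, was found in 61.3% of γδ, 61.6% of αβ, 53.7% of myeloid and 99.9% of fibroblast cells. Macrophage markers summed to 1168 and 1682 CPM (4 comparable, none 2-fold apart, none of the 12 at 0 in γδ cells), and dendritic cell markers to 7060 and 6459 CPM (3 comparable, none 2-fold apart, 3 of 10 at 0). With so few genes and 74.1% of all genes within 2-fold, these counts say little about the markers. The fibroblast and macrophage sums include *Dcn*, *Col1a2*, *Lyz2*, *C1qa* and *C1qb*, which the gate limited in both groups. How alike these sums were was therefore in part set by the gate. Endothelial and pericyte markers summed to 73.3 and 170 CPM with *Rgs5* lower, and mast and B cell markers had 2 UMIs in the 75 cells. Neutrophil markers had 1 UMI in the 75 cells, but 19 UMIs on Day 7 (1028 CPM against 197 CPM in αβ cells), all in 1 of the 6 γδ cells. Keratinocyte markers were the exception. They summed to 1267 CPM in 39 of 75 γδ cells against 160 CPM in 25 of 73 αβ cells. All 4 that could be compared, *Krt10*, *Krt1*, *Dsp* and *Perp*, were higher (100%, against 15.7% of all genes), with a median of 3.37. 1 γδ cell with 7934 UMIs held 183 of the 242 keratinocyte marker UMIs. Without the 8 γδ and 7 αβ cells with at least 1% of UMIs in keratinocyte markers or MHC class II genes, the log2 ratios of *Krt10* and *Krt1* were 0.81 and 1.13 and that of *Perp* −0.53, while *Dsp*, which encodes desmoplakin, stayed at 3.09. The ratios of *Xcl1*, *Areg*, *Fcer1g* and *Nkg7* were 4.69, 4.59, 3.22 and 3.26 without those cells.

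MHC class II transcripts were also held by few γδ cells. *Cd74*, the invariant chain of MHC class II, stood at 3190 CPM in γδ and 3089 CPM in αβ cells of Day 14. 7 γδ cells with at least 10 *Cd74* UMIs held 593 of the 609. Their median was 6377 UMIs, against 1952.5 in the other 68 cells, all 7 had *Trdv4* and 5 had *Tcrg-C1*. Whether these barcodes hold more than 1 cell was not tested, and no doublet caller was run.

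The γδ cells of Day 14 were not uniform. 6 of the 75 cells had a UMI of *Il17a*, *Cd163l1* or *5830411N06Rik*, genes of interleukin-17 γδ T cells, a split chosen after the values were seen. Of their 16054 UMIs, 7934 came from the cell rich in keratinocyte UMIs described above, so the contrast is given in cells rather than in levels. *Trdv4* was found in 1 of these 6 cells, which had 3 of its UMIs together with *Il17a* and *Cd163l1*, and in 61 of the other 69. *Fcer1g* was found in 2 of 6 and 68 of 69, *Nkg7* and *Ctla2a* each in 1 of 6 and 68 of 69, *Xcl1* in 1 of 6 and 51 of 69, and *Klrd1* in none of 6 and 49 of 69. The opposite held for *Il7r*, found in 5 of 6 and 2 of 69, and *Rora* was found in 3 of 6 and 12 of 69. Median depth was 1835.5 UMIs in the 6 cells and 2106 in the 69. 1 of the 6 cells, which entered by a single *Cd163l1* UMI, held all 12 *Ctla2a*, all 9 *Nkg7* and 6 of the 7 *Fcer1g* UMIs of the 6, with 11 of *Areg* and none of *Il7r*. The other 5 cells had no UMI of *Ctla2a*, *Nkg7* or *Xcl1*, 1 of *Fcer1g*, and *Il7r* in all 5. The heat map of single cells shows these 5 cells without most of the transcripts common to the rest, and the sixth with them.

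**Figure D4:**
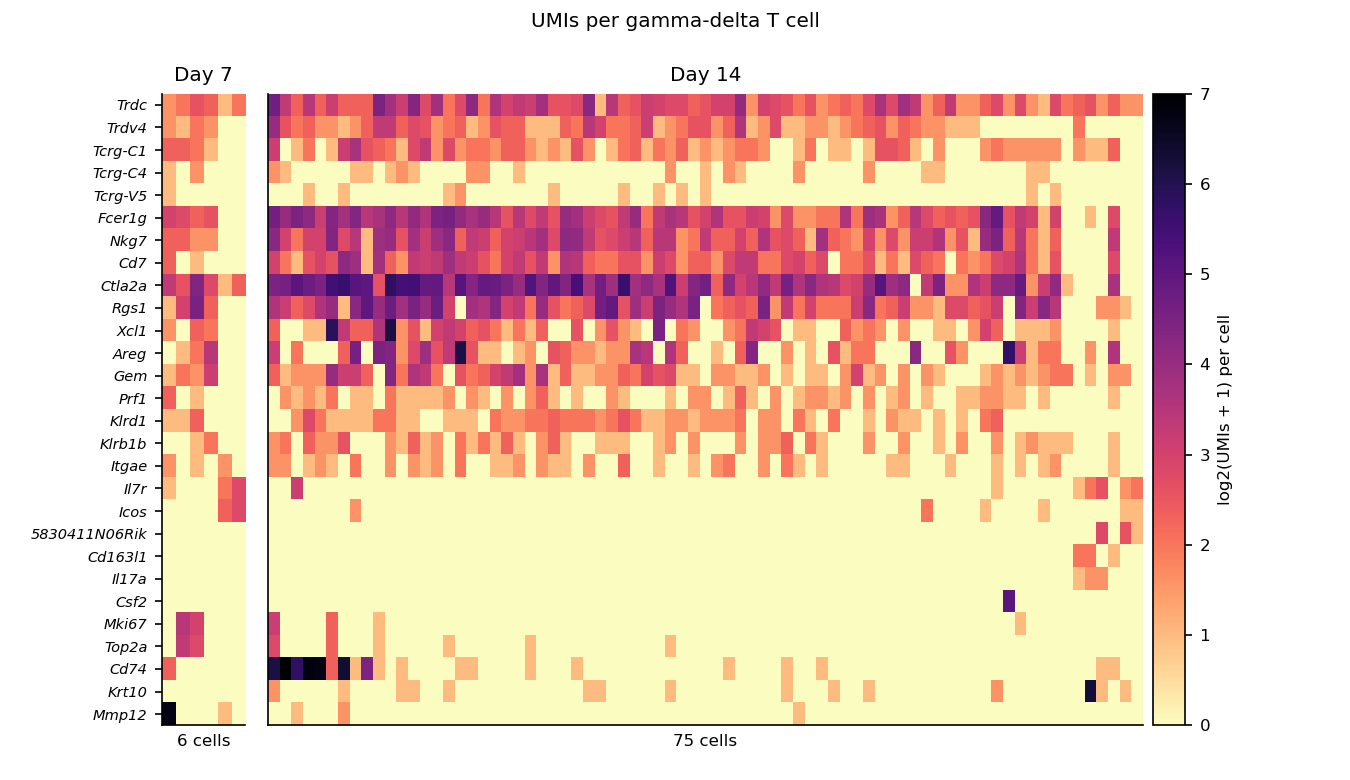
UMIs of 28 genes (rows) in each of the 6 γδ cells of Day 7 and the 75 of Day 14 (columns), coloured by log2(UMIs + 1). Within a day, cells without a UMI of *Il17a*, *Cd163l1* or *5830411N06Rik* come first, then those with one, each ordered by the presence of *Trdv4* and then by depth. *Fcer1g*, *Nkg7* and *Ctla2a* are filled in nearly all of the 69 cells without such a UMI and in 2, 1 and 1 of the 6 with one.

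The same cells were also split by *Trdv4*, again after the values were seen. The 62 cells with *Trdv4* and the 13 without had *Tcrg-C1* at 997 and 647 CPM and *Nkg7* at 2928 and 2064 CPM. The cell rich in keratinocyte UMIs is among the 13 and held 7934 of their 32465 UMIs. It had 1 UMI of *Tcrg-C1*, 3 of *Il7r*, 2 of *Areg* and none of *Nkg7* or *Xcl1*, so the levels of the 13 depend on it. *Areg* stood at 1981 and 2464 CPM, but 52 of the 80 *Areg* UMIs of the 13 came from 1 cell, and without it their level was 965 CPM. *Xcl1* stood at 1893 and 524 CPM and *Il7r* at 56.8 and 431 CPM. The 13 cells without a *Trdv4* UMI thus include cells that otherwise resembled those with one, and *Tcrg-C1* was found in 10 of them.

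The 6 γδ cells of Day 7 also fell apart by transcript. 4 of them had UMIs of *Trdv4*, *Tcrg-C1*, *Fcer1g*, *Nkg7*, *Rgs1* and *Il2rb*. The other 2 had none of these, but had 4 and 6 UMIs of *Icos* and 3 and 6 of *Il7r*. The one with 4 UMIs of *Icos* met the gate by a single *Trdc* UMI. It also had 1 UMI each of *Trac* and *Trbc2* and none of *Tcrg-C1*, *Tcrg-C2* or *Tcrg-C4*, so its place among γδ cells is uncertain. *Il17a*, *Cd163l1* and *5830411N06Rik* had no UMI in any of the 6. Of the 4, 2 had UMIs of *Mki67* and *Top2a*, and 1 carried 105 UMIs of *Mmp12*, 32 of *Lpl* and 50 of *Psap*, genes known from macrophages. That barcode also had 2 UMIs of *Trac* and 4 of *Trbc2*, and held 5191 of the 18475 γδ UMIs of Day 7. It held 7 UMIs of *Fcer1g* and 4 of *Nkg7*, and whether it contains more than 1 cell was not tested. Another of the 4 had 2 *Trbc2* UMIs. The cell with a single *Trdc* UMI had 3 UMIs of *S100a8* and 9 of *S100a9*, which are neutrophil genes. A group sum over Day 7 is thus a sum over unlike cells.

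Between the days, 356 of 1716 comparable genes (20.7%) were at least 2-fold higher in the γδ cells of Day 14 than in those of Day 7 and 163 (9.5%) at least 2-fold lower, with a median log2 ratio of 0.15. Among the genes that mark these cells, *Nkg7* was higher on Day 14 (2781 against 650 CPM, log2 ratio 2.10, 1.28 to 3.06), as were *Xcl1* (1660 against 487 CPM), *Ctla2a* (7285 against 2436 CPM) and *Fcer1g* (3546 against 1191 CPM). *Il2rb* and *Gem* differed less, with log2 ratios of 0.02 and 0.68. *Tcrg-C1* stood at 938 against 650 CPM (0.53, −0.31 to 1.51). Cell cycle genes were lower on Day 14, 7 of 10 comparable genes (70%, against 9.5% of all genes) with none higher and a median of −1.37. *Mki67*, a marker of dividing cells, stood at 73.3 against 920 CPM and *Top2a*, a topoisomerase of dividing cells, at 73.3 against 812 CPM, and all their Day 7 UMIs came from 2 of the 6 cells.

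Of the 10 genes with the largest differences by day in each direction, those higher on Day 14 were *H2-Ab1*, *Cd74*, *H2-Eb1*, *H2-Aa*, *Cst3*, *Klf4*, *Spty2d1*, *Nr4a3*, *Cd7* and *Rgcc*. The MHC class II genes among them belong to the few γδ cells described above, and without cells rich in keratinocyte or MHC class II UMIs the log2 ratios of *Cd74* and *H2-Aa* were −0.90 and −1.90. For *Cst3*, cystatin C, the ratio by day without those cells is not given here. In another comparison, γδ over αβ cells of Day 14, its log2 ratio went from 1.08 to −1.23. There the cells rich in keratinocyte or MHC class II UMIs were left out of both groups. *Klf4*, a transcription factor of quiescence and differentiation, stood at 581 CPM in 44 of 75 cells against 54.1 CPM from 1 UMI (log2 ratio 3.42, 0.92 to 8.74). Those lower on Day 14 were *Mmp12*, *Lpl*, *Lgmn*, *Ctsb*, *Mki67*, *Top2a*, *Ctsd*, *Psap*, *Sod1* and *Smc4*, and for 8 of the 10 over 50% of the Day 7 UMIs came from 1 cell. *Mmp12* had 106 UMIs on Day 7 (5737 CPM), 99.1% of them in 1 cell, and 4 UMIs on Day 14.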

How the data were processed

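Cells of mouse skin wounds were profiled by droplet single-cell RNA sequencing in 3 libraries, 1 each for Day 3, Day 7 and Day 14. The authors deposited counts, the UMIs of each of 32285 gene IDs in each barcode, made with Cell Ranger 6.0.0 and the mm10 genome per the submitters' processing notes. Of 44693 barcodes, 40492 were kept. Kept cells had a median of 3518 UMIs on Day 7 and 6291 on Day 14. The 94 kept barcodes shared by Day 7 and Day 14 stayed in.

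UMIs were summed over the γδ and over the αβ cells of a library and divided by the group's total. Ratios were formed where both groups together had at least 20 UMIs, and a group with 0 was put at 3 counts. Genes named by size were the 12 highest and 12 lowest by the smaller of the ratios in the 2 libraries, and the 10 largest in each direction by day, with at least 50 CPM and 10 UMIs in the higher group and gate genes left out. The other named genes come from 24 lists of 361 genes, 357 of them in the table, and some genes are not reported here. The cells, the lists and the genes were chosen with earlier results of these data known. Python 3.11.15, numpy 2.4.6, scipy 1.17.1 and pandas 2.3.3 were used. The code for the ratio intervals was run on simulated Poisson counts, for which such intervals are exact. Those counts lack the clustering of UMIs in single cells, so the run does not show how the intervals hold for these cells. Other gates, filters and thinning were tried (16 planned, 3 chosen after seeing the data, as was leaving 1 cell out of each split of the Day 14 cells). No doublets were called, so the limits on myeloid and fibroblast UMIs were the safeguard. The V exons were read from GENCODE vM21 transcripts on GRCm38. Day 3 entered no comparison.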

Additional observations from a re-analysis of the deposited data

How the results depend on the processing

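Intervals cover counting error only, and 6 cells limit every Day 7 value, so that 0 UMIs there, taken as 3 counts, allow up to 162 CPM. On Day 14 *Trdv4*, *Tcrg-C1*, *Nkg7*, *Prf1*, *Klrd1*, *Fcer1g*, *Icos*, *Cd28*, *Ctla4* and *Tnfrsf4* kept their sign and the 2-fold difference in all 16 alternatives that recompute ratios, as did *Xcl1* (3.65 to 5.43) and *Areg* (4.08 to 4.81), whereas *Fos*, *Jun*, *Krt10* and *Krt1* passed it in 14 and *Perp* in 12. Every alternative kept the αβ cells without *Trdc*, so for *Trdv4* this outcome was in part set by the gate. Leaving γδ cells with *Trac* or *Trbc2* out kept 3 and 26 cells, 0.180% of kept and 15.3% of gated T cells on Day 14. The genes 2-fold higher were then 291 on Day 14, those lower 131 on Day 7 and 45 in both libraries, and by day 149 were higher and 41 lower, with *Ctsd* turning to 0.36. With at least 40 UMIs the counts were 221 higher and 118 lower on Day 14, 61 and 150 on Day 7, 18 and 42 in both, and 210 and 31 by day. With at least 10 UMIs they were 870 and 667 on Day 14, 563 higher on Day 7, 137 higher in both and 513 lower by day. Without limits on myeloid and fibroblast UMIs, 343 were higher on Day 7 and 352 lower by day. Chosen after seeing the data, leaving out cells rich in keratinocyte or MHC class II UMIs gave 85 lower by day and turned *Cd74* to −0.90 and *H2-Aa* to −1.90, and leaving out cells with 5 or more *Mmp12* or *Lpl* UMIs gave 213 lower on Day 7. The causes were not tested. No paired analysis was possible because each day has 1 library.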

Other observations

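Several genes outside the lists were high in the γδ cells of Day 14 and low in the αβ cells, and were chosen after their values were seen. *Avil*, which encodes the actin-binding protein advillin, had 86 UMIs in 46 of 75 γδ cells and none in 73 αβ cells, so it was at least 30.0-fold higher, and the γδ cells held 47% of the library's 183 *Avil* UMIs. On Day 7 it had 6 UMIs in 3 of 6 γδ cells and none in the αβ cells. *Fermt2*, an activator of integrins, stood at 859 CPM in 62 of 75 cells against 35.0 CPM, a log2 ratio of 4.62 (3.54 to 5.95). The microtubule proteins *Map1b* and *Map2* had 58 UMIs in 34 cells and 52 UMIs in 30 cells, against 1 UMI each, with log2 ratios of 5.92 (3.39 to 11.25) and 5.77 (3.22 to 11.10). *Nrgn*, a calmodulin-binding protein, had 60 UMIs in 37 cells against 2 UMIs (4.97, 3.06 to 8.05).

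The Day 3 library held 1 γδ cell, with 2820 UMIs, and 1 αβ cell among 4452 kept cells, a γδ share of 0.0225% (0.000569 to 0.125).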
